A study of Mus musculus with 483 samples.

Results

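The extracellular matrix and basement membrane genes described here are 41 of the 46078 genes in the table, and they were chosen by name as collagens, laminins and other secreted matrix proteins. They comprise 14 basement membrane genes, 6 fibrillar collagens, 3 chains of collagen VI, 8 genes of elastic fibres, fibulins and the EMILIN family, 6 adhesive and matricellular glycoproteins, and 4 proteoglycans. Transcripts were counted by Smart-seq2, which sequences the cDNA of 1 cell per well, in single mouse cells that carried CD31 and Kit and lacked CD45, from the aorta with the gonads and mesonephros around it. Clusters 1, 2 and 3 held 97, 73 and 31 cells of the Ctrl group and 86, 72 and 36 of the group treated with aDll4, while clusters 4 and 5 together held 16 Ctrl and 19 treated cells and clusters 6 and 7 together 22 and 31. The labels do not explain aDll4 and give no genotype, strain, embryonic age, dose, duration or embryo for either group. The submitters placed every cell in 1 of 7 ICGS clusters, built on these same cells, so levels by cluster are a description and no test.

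A basement membrane is the thin sheet of matrix beneath endothelium and epithelium. Laminin trimers and a network of type IV collagen form its layers, which nidogens, perlecan and agrin link together. Mesenchymal cells and fibroblasts make most interstitial matrix, in which fibrillar collagens I, III and V, collagen VI beads, elastic microfibrils and small proteoglycans surround the cells. The endothelium of the embryonic aorta lies on its own basement membrane, and blood-forming cells leave it to bud into the lumen.

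Col4a1 and Col4a2, the chains of the type IV collagen trimer, lie head to head on chromosome 8 (mm10), and their start sites are 21 bases apart. Their RefSeq promoter windows on GRCm38.p6 are shown because these genes varied together across cells more closely than any other pair examined. Each window runs from 250 bases before to 50 bases after the start, in the direction of its own gene. Capitals mark the 78 bases that both windows hold, which read as reverse complements of each other. The Col4a1 window is chr8:11312777-11313076 on the minus strand, and the Col4a2 window is chr8:11312555-11312854 on the plus strand.
Col4a1: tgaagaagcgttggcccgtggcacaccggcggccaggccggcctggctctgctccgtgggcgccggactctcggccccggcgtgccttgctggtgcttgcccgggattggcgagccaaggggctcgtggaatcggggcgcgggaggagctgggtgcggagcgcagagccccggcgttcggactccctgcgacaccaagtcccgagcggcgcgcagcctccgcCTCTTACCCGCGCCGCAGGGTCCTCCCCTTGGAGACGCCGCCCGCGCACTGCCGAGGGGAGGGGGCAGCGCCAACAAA
Col4a2: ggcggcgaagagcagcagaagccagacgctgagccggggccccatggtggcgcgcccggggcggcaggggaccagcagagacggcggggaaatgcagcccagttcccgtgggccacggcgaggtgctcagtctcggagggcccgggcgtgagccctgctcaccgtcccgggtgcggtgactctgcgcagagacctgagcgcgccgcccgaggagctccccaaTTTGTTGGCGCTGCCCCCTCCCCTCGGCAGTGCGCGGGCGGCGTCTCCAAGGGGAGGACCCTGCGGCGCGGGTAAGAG

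The windows of Col4a1 and Col4a2 hold 74% and 73.7% G and C, against a median of 52.7% over all 32851 windows of the same length. Of the 41 members, 29 had a window, with 37 windows between them. A member was counted if any of its windows held the letters, while the shares over all windows are per window. The member counts can be higher for that reason. Letters were searched on both strands, and no matches overlapped in the windows shown. GGGCGG, the GC box, was in 21 of the 29 members with a window and in 35.7% of all windows. The shared stretch of Col4a1 and Col4a2 holds 1 match, which begins at base 9 after the Col4a1 start and at base 7 after the Col4a2 start. CCAAT was in 12 of the 29 members and in 37.4% of all windows. It lies at base -145 from the start of Col4a1 and at base -32 from that of Col4a2. TATAAA was in the windows of Col3a1, Postn and Tnc and in 13.6% of all windows. GTGGGAA, the core letters bound by the Notch pathway factor RBPJ, was in those of Fbn1, Hspg2, Tnc and Vcan and in 6.38% of all windows, and it was not found in those of Col4a1 and Col4a2.

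Each treatment is 1 sample, because the labels name no embryo or culture and cells are not replicates, so no p-value is given. A cell of clusters 1 to 3 had between 123097 and 2870618 reads assigned to genes, with a median of 875380 in Ctrl and 838945 in treated cells. The labels call all cells hematopoietic stem cells, but in clusters 1 to 3 the sum of 10 endothelial markers had a median of 7954 CPM (counts per 1000000 gene-assigned reads), against 47.5 CPM for 12 hematopoietic markers. Clusters 4 and 5 (35 cells) carried mesenchymal transcripts and clusters 6 and 7 (53 cells) hematopoietic ones. The sum of epithelial markers exceeded 100 CPM in 20 of the 35 cells of clusters 4 and 5, with a median of 569.5 CPM in cluster 5, and in 11 of the 395 cells of clusters 1 to 3, with a median of 0, and its part in the ratios between these clusters was not tested. In clusters 1 to 3, 1 Ctrl and 2 treated cells went against their cluster, with under 200 CPM of endothelial markers. This limit does not catch every such cell, since a treated matrix-rich cell of cluster 3 described below had 299.7 CPM. The library numbers in the titles fall into block 1 and the smaller block 2 (47 Ctrl and 48 treated cells of clusters 1 to 3), cut here into 6 runs of 96 numbers, 4 in block 1. By Xist and Y-linked reads, 88.4% of the treated cells of block 1 were Y-positive and 0 Xist-positive, while 44 of the 48 of block 2 were Xist-positive and 0 Y-positive. Ctrl cells held both kinds in both blocks, with 46.1% Xist-positive in block 1 and 21 of 47 in block 2. Sex and treatment therefore cannot be told apart in a comparison over all cells, and same-sex values are given beside several results.

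The first comparison asked which matrix genes belonged to the endothelial clusters and which to the mesenchymal ones. On the scale of log2(CPM + 1) of summed counts, 21 of the 41 members were higher in clusters 4 and 5 than in clusters 1 to 3 by 1 or more, 12 were lower by as much, and 8 were neither. Over the 15109 genes tested, 10.9% were higher by that measure and 13.4% lower. The members split by role. Of the 14 basement membrane genes, 10 were endothelial and Lama2 alone was mesenchymal. All 3 collagen VI chains, 5 of the 6 fibrillar collagens and 3 of the 4 proteoglycans were mesenchymal. The 21 include Emilin2 and Thbs1, which had 39.2 and 73.9 CPM in clusters 4 and 5 but more, 138.3 and 634 CPM, in clusters 6 and 7.

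**Figure D1:**
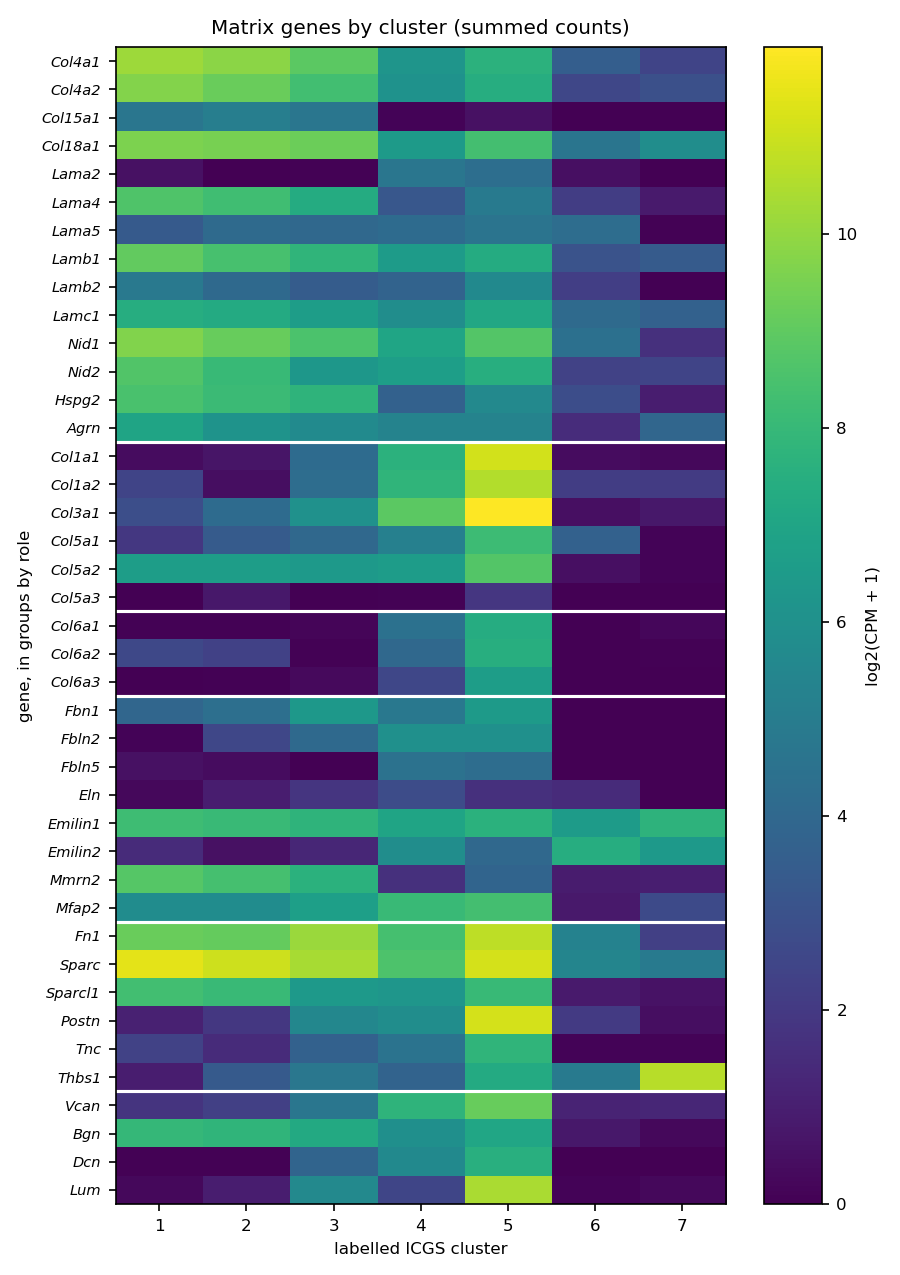
Summed expression of the 41 matrix genes in each labelled cluster, with colour showing log2(CPM + 1), genes in rows grouped by role and white lines between the groups. Basement membrane genes such as Col4a1 (1175 CPM in cluster 1) are bright in clusters 1 to 3, and fibrillar collagens such as Col3a1 (3903 CPM in cluster 5) are bright in cluster 5.

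Col4a1 was the most abundant basement membrane gene of the endothelial clusters, at 131.8 CPM per kilobase of merged exon in clusters 1 to 3, before Col18a1 (104.3), Col4a2 (101.7) and Nid1 (94.9). Col4a1 (ENSMUSG00000031502, chromosome 8, 11198423 to 11312826, minus strand) had 1175 CPM in cluster 1, 914 in cluster 2, 489.6 in cluster 3, 74.6 in cluster 4, 204.7 in cluster 5, 10.8 in cluster 6 and 4.49 in cluster 7. The 95% interval was 1169.9 to 1180.0 CPM in cluster 1 and 197.6 to 211.99 CPM in cluster 5, and such intervals cover counting error of amplified reads only. Single cells of cluster 1 ran from 111.95 to 4536 CPM with a median of 1121, and those of cluster 5 from 0 to 606 with a median of 150.99. Every cell of cluster 1 held the transcript, and its lowest cells overlapped the mesenchymal ones. Col4a2 (ENSMUSG00000031503, chromosome 8, 11312805 to 11449287, plus strand) followed the same order over clusters 1 to 5, at 838 CPM in cluster 1 and 66.6 CPM in cluster 4.

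Per kilobase of merged exon, Col4a1 stood above Col4a2 by a ratio of 1.30 in clusters 1 to 3. The trimer takes more alpha1 than alpha2 chains. The ratio was 1.31 in Ctrl and 1.28 in treated cells, and 1.30 and 1.28 in blocks 1 and 2. With the longest coding transcript as the length it was 1.43, so the ratio depends on the length chosen. The same lengths apply to both treatments, so the likeness of the ratio between them cannot depend on that choice.

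Collagens XV and XVIII, which carry heparan or chondroitin sulfate chains and border basement membranes, were endothelial at very different levels. Col18a1, the source of the endostatin fragment, had 775 CPM in cluster 1, 718 in cluster 2, 616 in cluster 3, 89.4 in cluster 4 and 326 in cluster 5. Col15a1 had only 24.5, 33.4 and 24.4 CPM in clusters 1, 2 and 3. It was nearly absent elsewhere, at 0.45 CPM or less, and the log2 ratio of clusters 4 and 5 over 1 to 3 was -4.52.

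The laminin chains separated more sharply. Lama4, the alpha chain typical of endothelial laminin, had 398 CPM in cluster 1, 311 in cluster 2 and 160.4 in cluster 3. It had 8.54 CPM in cluster 4 and 27.9 CPM in cluster 5, a log2 ratio of -4.23. Lama2, the alpha chain of muscle and mesenchymal laminin, went the other way with 0.25 CPM in clusters 1 to 3 and 22.05 CPM in clusters 4 and 5. Lama5, another laminin alpha chain of vessels and epithelia, was low throughout, at 12.7 CPM in clusters 1 to 3 and 19.8 CPM in clusters 4 and 5. Per kilobase, Lama4 exceeded Lama5 by a ratio of 24.7 in clusters 1 to 3 and was below it (0.80) in clusters 4 and 5.

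Among the partner chains, Lamb1 exceeded Lamb2 per kilobase by a ratio of 12.5 in clusters 1 to 3. Lamb1 was endothelial (log2 ratio -1.79), and Lamb2 was neither (0.45). The gamma chain gene Lamc1, which is common to most laminins, had 156.1 CPM in clusters 1 to 3 and 92.2 CPM in clusters 4 and 5, a log2 ratio of -0.75. So the alpha chain, more than the beta or gamma chain, told the endothelial and mesenchymal clusters apart.

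The linkers of the sheet were endothelial too. Nid1 and Nid2, which encode the nidogens that bridge laminin and collagen IV, had log2 ratios of -1.34 and -1.18. Nid1 had 802, 571 and 379 CPM in clusters 1, 2 and 3, and Nid2 had 408, 259 and 77.9 CPM. The ratio of Nid1 to Nid2 per kilobase was 1.46 in cluster 1 and 3.62 in cluster 3, so Nid2 was relatively scarce in cluster 3. Nid2 shares 437 exon bases with Rtraf on the other strand (156.5 CPM), and without strand the reads of both cannot be told apart. Hspg2, the perlecan core protein, had a log2 ratio of -3.46 with 311 CPM in clusters 1 to 3, and Agrn, agrin, had -1.23 with 94.8 CPM.

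The sum of the 14 basement membrane genes per cell shows the gradient. It ran from 1479.7 to 23429.5 CPM with a median of 5334 in cluster 1, from 1220.4 to 16511 with a median of 3941 in cluster 2, and from 53.4 to 12219 with a median of 2465 in cluster 3. Medians were 501 CPM in cluster 4, 1978 in cluster 5, 86.7 in cluster 6 and 72.04 in cluster 7. Of the 395 cells of clusters 1 to 3, 389 exceeded 1000 CPM. None of the 53 hematopoietic cells did, and their highest value was 605 CPM.

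Fibrillar collagens marked cluster 5. Col3a1, the collagen III chain of soft tissues, had 6.34 CPM in cluster 1, 17.1 in cluster 2, 65.5 in cluster 3, 485 in cluster 4, 3903 in cluster 5, 0.42 in cluster 6 and 0.68 in cluster 7. Col1a1 and Col1a2, the collagen I chains, had 2217 and 1501 CPM in cluster 5, 204.2 and 220.8 CPM in cluster 4, and 2.81 and 4.94 CPM over clusters 1 to 3. All 13 cells of cluster 5 had reads of Col1a1 and Col3a1, and the lowest of them had 73.7 and 1198 CPM. The share of cells with a read of Col3a1 was 36.1%, 34.5% and 40.3% in clusters 1, 2 and 3 and 33.3% and 40% in the hematopoietic clusters 6 and 7, at median depths of 931920, 835071, 669599, 1112350 and 1018460 reads. The share of endothelial cells with any read was thus at the level of blood cells, which should lack the gene. Of the 395 cells of clusters 1 to 3, however, 28 had 10 or more reads of it, against 0 of the 53 cells of clusters 6 and 7, and the summed levels were 18.7 and 0.52 CPM.

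Collagen V was split between its chains. Col5a2 was shared, with 98.1, 99.8 and 83.7 CPM in clusters 1, 2 and 3, 94.1 in cluster 4 and 429 in cluster 5. Col5a1, which pairs with it in the usual trimer, had only 2.78, 9.62 and 15.1 CPM in clusters 1, 2 and 3 and 289 CPM in cluster 5. Per kilobase, Col5a2 exceeded Col5a1 by a ratio of 12.3 in clusters 1 to 3 and of 1.31 in cluster 5. Col5a2 lies 24.6 kb from Col3a1 on chromosome 1, yet Col3a1 was scarce where Col5a2 was not. Col5a3 had 1.20 CPM in clusters 4 and 5 and 0.26 CPM in clusters 1 to 3.

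Collagen VI, the bead-like collagen around mesenchymal cells, was highest in cluster 5. Col6a1, Col6a2 and Col6a3 had 165.8, 179.95 and 98.8 CPM there. In cluster 4 they had 20.8, 15.3 and 4.83 CPM, and in clusters 1 to 3 together 0.057, 3.93 and 0.062 CPM.

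Elastic fibre genes were divided. Mmrn2 (multimerin 2), an endothelial EMILIN family protein, had the lowest mesenchymal over endothelial ratio of the 41 members, at -5.56, with 444 CPM in cluster 1 and 2.15 CPM in cluster 4. Emilin1 was in every cluster, from 93.5 CPM in cluster 6 to 297 CPM in cluster 1. Emilin2 was chiefly hematopoietic, with 170.9 CPM in cluster 6 and 84.8 CPM in cluster 7 against 1.24 CPM in clusters 1 to 3. The microfibril genes differed from the basement membrane genes in their order over the endothelial clusters. Mfap2 had 54.34, 54.0035 and 107.006 CPM in clusters 1, 2 and 3 and Fbn1, fibrillin 1, had 14.5, 19.3 and 81.8 CPM, so both were highest in cluster 3. Fbln2 and Fbln5, the fibulins, and Eln, elastin, were mesenchymal with log2 ratios of 3.64, 3.96 and 1.54, and Eln stayed at 5.76 CPM or less in every cluster.

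The adhesive and matricellular glycoproteins were the most widely shared. Sparc, a collagen-binding calcium protein, was the most abundant member per kilobase in clusters 1, 2 and 3, at 737, 548 and 344 CPM per kilobase, and reached 614 CPM per kilobase in cluster 5. Fn1, fibronectin, had 586, 545 and 1117 CPM in clusters 1, 2 and 3 and 1689 CPM in cluster 5. In cluster 3 its cells ran from 0 to 7915 CPM with a median of 276, below the median of 423 in cluster 1, so the level of the summed cells and that of the median cell took opposite orders. Sparcl1, the relative of Sparc, had 318, 267 and 85.2 CPM in clusters 1, 2 and 3.

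Postn (periostin) and Tnc (tenascin C), glycoproteins of growing connective tissue, were mesenchymal, with 2289.6 and 219.6 CPM in cluster 5. Thbs1, thrombospondin 1, which platelets store, had 0.95 CPM in cluster 1 and 155.2 CPM in cluster 5 but 1629.8 CPM (1612 to 1647) in the hematopoietic cluster 7. There 19 of 20 cells had a read of it, the median cell had 1457 CPM and the highest 5546.

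The proteoglycans lay on both sides too. Bgn, biglycan, on the X chromosome, was endothelial with 249.6, 221.6 and 150.7 CPM in clusters 1, 2 and 3 and a log2 ratio of -1.29. Its relatives Dcn (decorin) and Lum (lumican) lie 46985 bases apart on chromosome 10 and were mesenchymal, with 182.5 and 1349 CPM in cluster 5 and 49.3 and 4.69 CPM in cluster 4. Vcan, the large proteoglycan versican, had 216.9 and 569 CPM in clusters 4 and 5 against 6.18 CPM in clusters 1 to 3.

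Single cells were then placed by their basement membrane sum and by the sum of 9 interstitial genes (Col1a1, Col1a2, Col3a1, Col6a1, Col6a2, Col6a3, Postn, Dcn and Lum), which were picked after their values were seen. The interstitial sum had a median of 1.56 CPM in clusters 1 to 3 and of 7817 CPM in cluster 5. Of the 395 cells of clusters 1 to 3, 24 exceeded 100 CPM and 4 exceeded 1000 CPM, all 4 of them treated. A single treated cell of cluster 3, from run 3 of block 1, had 34132 CPM, with 11564 CPM of Lum, 6937 of Postn and 6623 of Col3a1. It had 206847 reads and 3001 genes, 164.37 CPM of basement membrane genes, 0 CPM of Pecam1 and Kdr, 4.83 CPM of Cdh5, 2374 CPM of the smooth muscle actin Acta2 and 1533 CPM of the keratin Krt19. Its profile went against the endothelial cluster it was labelled with. The next cell, also treated and of cluster 3, had 3399 CPM and 65.1 CPM of endothelial markers.

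**Figure D2:**
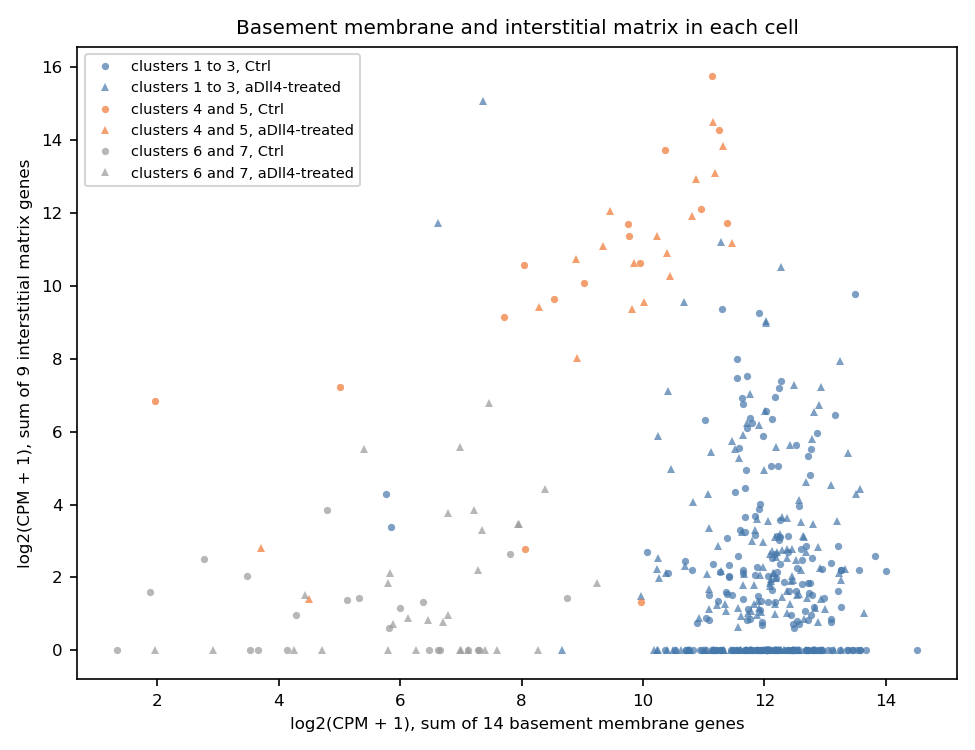
Each cell by its basement membrane sum (14 genes, x axis) and its interstitial matrix sum (9 genes, y axis), both as log2(CPM + 1), with circles for Ctrl, triangles for treated cells and colours for cluster groups. Clusters 1 to 3 lie to the right and low, clusters 4 and 5 high, and 1 treated cell labelled cluster 3 lies at the upper left with 34132 CPM of interstitial genes.

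The second comparison asked whether matrix genes differed between treated and Ctrl cells inside the endothelial clusters 1 to 3. Of the 41 members, 33 reached the minimum of 5% of those cells with a read and were compared, and Lama2, Col5a3, Col6a1, Col6a3, Fbln2, Fbln5, Eln and Dcn were not. The measure was log2 of (CPM + 1) in treated over (CPM + 1) in Ctrl cells, summed per treatment, and by it 2 members were lower by 0.5 or more with both blocks below 0, and 5 were higher with both blocks above 0. Over all 14905 measured genes, 6.96% were lower and 4.70% higher by that rule. The members' median was -0.061, and that of all measured genes 0.0017. The 2 lower members were Lamb2 and Col6a2, and the 5 higher ones were Col1a1, Col3a1, Col5a1, Postn and Lum, all of which had under 30 CPM in both treatments.

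**Figure D3:**
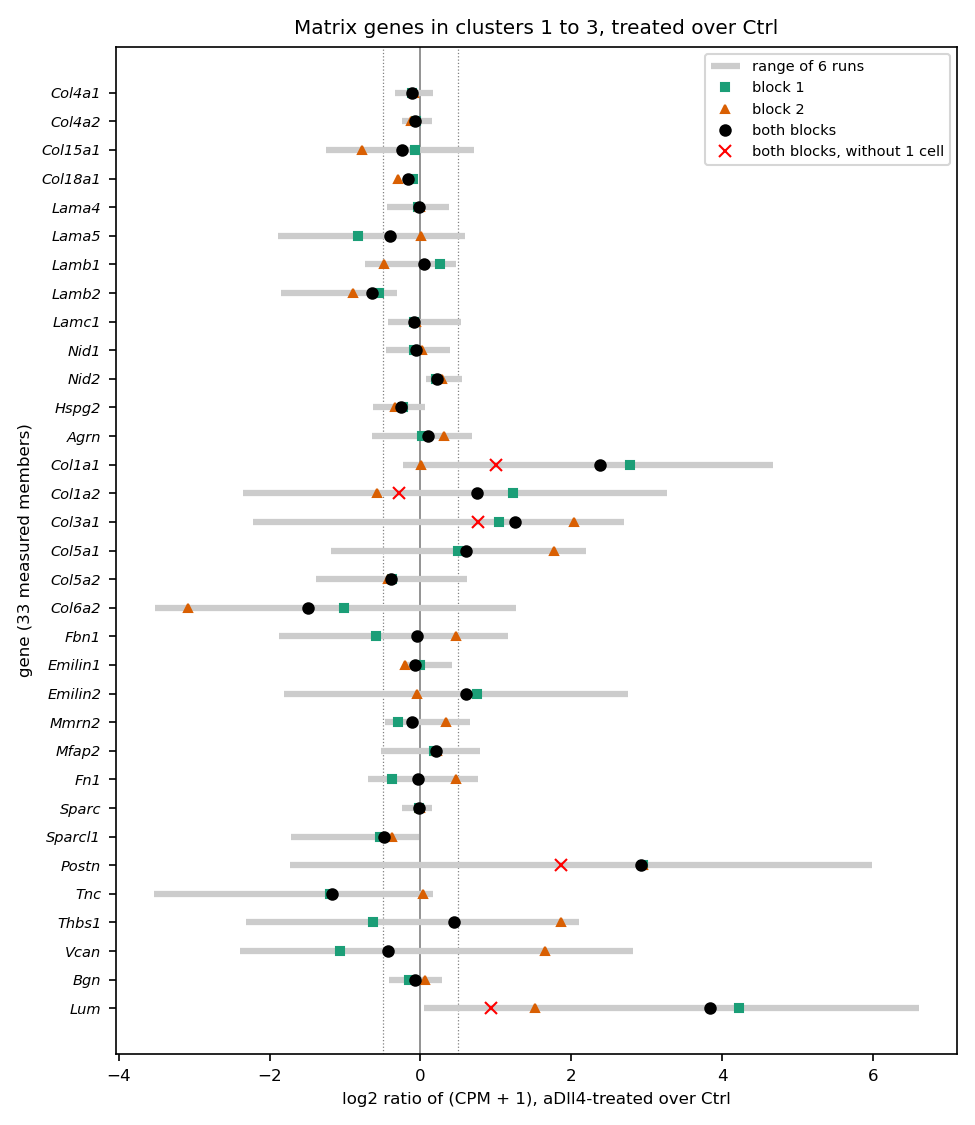
Log2 ratio of (CPM + 1), treated over Ctrl, in clusters 1 to 3 for the 33 measured members, with black circles for both blocks, green squares for block 1, orange triangles for block 2, grey bars for the range of 6 runs, and red crosses for the value without the 1 matrix-rich cell (drawn for Col1a1, Col1a2, Col3a1, Postn and Lum). Basement membrane genes lie close to 0 (Col4a1 -0.11), Sparcl1 lies left of 0 in every run, and Lum moves from 3.83 to 0.94 without that cell.

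The basement membrane program was nearly level between treatments. Its 13 measured members had a median log2 ratio of -0.090, with 10 below and 3 above 0, and 10 of them were within 0.25 of 0. Medians were -0.086 in block 1 and -0.081 in block 2, and over the 6 runs they ran from -0.28 to 0.062. Both blocks were below 0 for 8 of the 13 and above 0 for 2, where 26.2% and 26.8% of all measured genes were so. At 50 CPM or more, 9 of 10 basement membrane genes and 15 of 18 members were within 0.25, as were 3044 of all 3869 genes at that level. The 10 endothelial markers, for comparison, had a median of -0.099 with 8 of 10 below 0. Per cell, the basement membrane sum ran from 53.4 to 23429.5 CPM with a median of 4257 in Ctrl, and from 97.6 to 12768 with a median of 4336 in treated cells, so the groups overlapped almost fully. Within each block the Ctrl median was the higher, at 4544 against 4405 CPM in block 1 and 3926 against 3532 CPM in block 2.

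Col4a1 in clusters 1 to 3 had 1019.6 CPM in Ctrl (1015 to 1024) and 943 CPM in treated cells (938 to 948). Ctrl cells ran from 2.67 to 4536 CPM with a median of 954, and treated cells from 0 to 3334 with a median of 864. The log2 ratio was -0.11, and blocks 1 and 2 gave -0.11 and -0.081, with 4 of 6 runs below 0. Col4a2 had a ratio of -0.077 and was below 0 in 3 of 6 runs. Sparc, the most abundant member, had 2340.2 and 2305 CPM and a ratio of -0.022. For these abundant genes the difference was smaller than the SD of the ratio over the 6 runs, which was 0.22 for Col4a1, 0.19 for Col4a2 and 0.16 for Sparc.

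In cluster 3 alone collagen IV and the chains Lama4 and Lamb1 lay on opposite sides of 0. Col4a1 went from 423 CPM in Ctrl to 564 CPM in treated cells (log2 ratio 0.41) and Col4a2 0.38, while Lama4 had a ratio of -1.15, Lamb1 -0.66 and Nid1 -0.61. Cluster 3 holds 31 Ctrl and 36 treated cells, so these values rest on few cells. In cluster 2 the basement membrane median was -0.24, with Hspg2 at -0.60 and Col18a1 at -0.41, and in cluster 1 it was 0.0083.

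A few basement membrane genes had the same sign in both blocks and in 5 or 6 of the 6 runs. Col18a1 had a ratio of -0.16 (SD over runs 0.073) and was below 0 in 6 of 6 runs but 0.15 among Xist-positive cells of block 2. Hspg2 went from 338 CPM in Ctrl to 281 CPM in treated cells, a ratio of -0.26 (SD over runs 0.24), below 0 in 5 of 6 runs and in both blocks (-0.23 and -0.33). Nid2 went the other way, from 285 to 333 CPM, a ratio of 0.22 (SD over runs 0.18) that was above 0 in 6 of 6 runs. It was 0.66 among Y-positive cells of block 1 but -0.014 among Xist-positive cells of block 2. Lamb2, the only basement membrane gene past 0.5, went from 25.1 CPM in Ctrl to 15.7 CPM in treated cells, a ratio of -0.65 (SD over runs 0.56), with -0.55 and -0.90 in the blocks and 6 of 6 runs below 0. Lamb2 was detected in 36.8% of Ctrl cells (exact interval 30.1 to 43.9%) but also in 32.5% of the treated ones (25.9 to 39.6%), so most cells of both groups were at 0. In cluster 3 alone, where Ctrl had 2.16 CPM, its ratio was 2.69.

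Sparcl1, a matricellular protein of vessel walls, was the abundant member with the largest difference, just inside the limit of 0.5. Ctrl cells had 307 CPM (305 to 309.95) and treated cells 219.5 CPM (217.3 to 221.8), a log2 ratio of -0.48. Ctrl cells ran from 0 to 3507 CPM with a median of 188.3, and treated cells from 0 to 2355 with a median of 63.7. The groups overlapped over most of their range, but the median treated cell lay well below the Ctrl median. Sparcl1 was detected in 89.6% of Ctrl cells (84.5 to 93.4%) against 76.8% of the treated ones (70.2 to 82.5%), while 35.8% of the hematopoietic cells of clusters 6 and 7 had a read, at a median depth of 1052300 reads against 875380 and 838945. The mean over cells of log2(CPM + 1) was 6.42 ± 3.33 in Ctrl and 4.92 ± 3.64 in treated cells (SD over cells). Blocks 1 and 2 gave ratios of -0.53 and -0.38. All 6 runs were below 0, from -1.72 in run 4 to -0.017 in run 2, so the ratio was smaller than its SD over runs, 0.64, and it was -0.25 without run 4. It was -0.65 among Y-positive cells of block 1 and -0.28 among Xist-positive cells of block 2, and -0.41, -0.48 and -1.50 in clusters 1, 2 and 3.

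**Figure D4:**
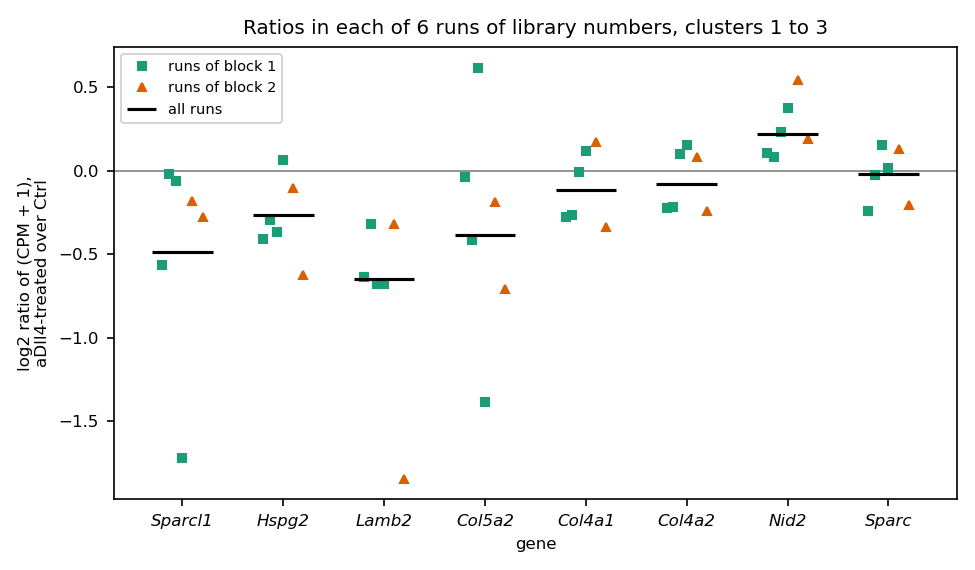
Log2 ratio of (CPM + 1), treated over Ctrl, in clusters 1 to 3 for 8 members in each of the 6 runs of library numbers, with green squares for runs of block 1, orange triangles for runs of block 2 and black bars for all runs together. Sparcl1 and Lamb2 are below 0 in every run and Nid2 is above 0 in every run, while Col4a1, Col4a2 and Sparc scatter around 0.

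Col5a2 resembled Sparcl1 in size, with 108.8 CPM in Ctrl against 82.9 CPM in treated cells and a ratio of -0.39, below 0 in 5 of 6 runs. Blocks 1 and 2 gave -0.38 and -0.43. The ratio was -0.66 among Y-positive cells of block 1 but 0.12 among Xist-positive cells of block 2. Mmrn2 (-0.11), Bgn (-0.069), Emilin1 (-0.070), Fn1 (-0.028) and Fbn1 (-0.044) were near 0 over both blocks together.

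The higher ratios of the mesenchymal matrix genes Lum, Col1a1, Postn and Col3a1 were smaller without the 1 treated cell of cluster 3 named above. They stayed past 0.5 without it, and above 0 in block 1 (0.66, 1.27, 1.52 and 0.27). Lum went from 0.17 CPM in Ctrl to 15.7 CPM in treated cells, a ratio of 3.83, and that cell held 92.1% of the treated reads. Without it the ratio was 0.94 and treated cells had 1.24 CPM. It also held 72.1% of the treated reads of Col1a1, 55.2% of Postn and 30.2% of Col3a1. Without it their ratios were 1.01, 1.87 and 0.76, from 2.38, 2.92 and 1.25. Col1a2 moved from 0.75 to -0.29. The next cell by interstitial sum, with 65.1 CPM of endothelial markers, stayed in these values. It had 1999 CPM of Postn, 597 of Col1a1 and 253 of Lum. The cell after it, also treated and of cluster 3, stayed in as well, with 1834 CPM of Col3a1 and 478.5 CPM of endothelial markers. The part of these cells in the remaining ratios was not tested. Among Y-positive cells of block 1, Col3a1 was at -0.27 and Postn at -0.52. Col3a1 was detected in 36.3% of the Ctrl and 36.1% of the treated cells, and Postn in 24.4% and 25.8%. The 9 measured mesenchymal markers outside the 41 genes had a median ratio of -0.062, with 6 below and 3 above 0, and 1 of them, the smooth muscle gene Tagln, was lower past 0.5 (-1.85). Their sum other than Mest, which was abundant in nearly all cells of clusters 1 to 3, ran from 0 to 2743 CPM in Ctrl and from 0 to 4114 CPM in treated cells. It exceeded 100 CPM in 24 Ctrl and 20 treated cells, and the part of such cells in the ratios was not tested beyond the values without them.

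Col5a1 went from 5.42 CPM in Ctrl to 8.74 CPM in treated cells, a ratio of 0.60 (blocks 0.49 and 1.77), and was above 0 in 5 of 6 runs. Col6a2 went from 6.06 to 1.52 CPM, a ratio of -1.49, and was detected in 8.46% (5.00 to 13.2%) of the Ctrl cells but only 5.67% (2.86 to 9.92%) of the treated ones. Both genes were seen in few endothelial cells, and 1 cell held 52.99% of the treated reads of Col6a2. Tnc, at 6.35 and 2.27 CPM, had a ratio of -1.17 but 0.028 in block 2, and 1 cell held 51.5% of its Ctrl reads.

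Within the endothelial cells, most members of the basement membrane varied together from cell to cell. Spearman's rho of log2(CPM + 1) was computed for all pairs of the 19 members detected in 50% or more of the 395 cells, as a description, since cells of a treatment share preparation and differ in depth. Col4a1 and Col4a2 had the highest value, 0.72, against a median of 0.19 for all pairs. It was 0.76 in Ctrl and 0.66 in treated cells, 0.72 and 0.71 in blocks 1 and 2, and 0.64, 0.64 and 0.63 within clusters 1, 2 and 3. Next came Col4a1 with Hspg2 (0.53), Col4a2 with Hspg2 (0.53), Lama4 with Nid2 (0.53) and Col4a1 with Nid1 (0.52). Inside cluster 3 these were 0.25, 0.32, 0.19 and 0.13, unlike the pair of collagen IV chains. Bgn and Emilin1 stood outside this group, with -0.095 and 0.022 against Col4a1, and the lowest pair was Col15a1 with Fn1 (-0.17). Among basement membrane genes, Col15a1 had only 0.15 with Col4a1 and -0.15 with Agrn, and Agrn had 0.094 with Lamc1. Sparc, which is not in that list, had 0.49 with Nid2 and 0.46 with Col4a1. Correlation of each gene with reads per cell was small, from -0.088 for Col4a1 to 0.18 for Bgn.

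**Figure D5:**
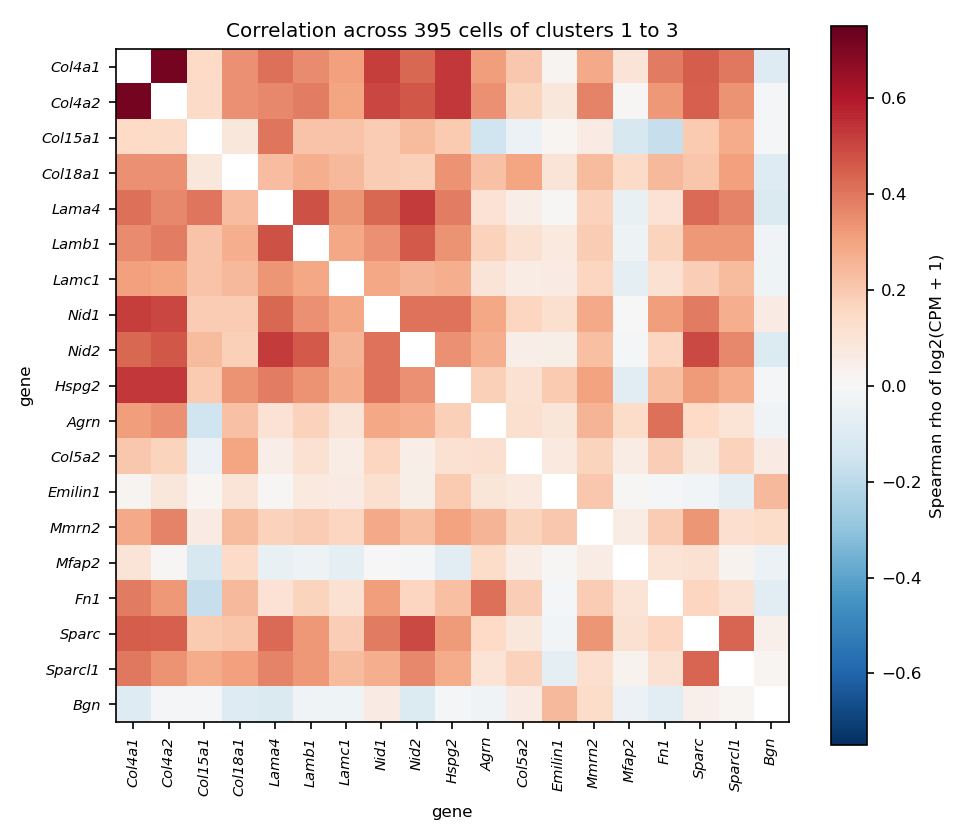
Spearman's rho between 19 members across the 395 cells of clusters 1 to 3, with red for positive and blue for negative values and the diagonal left white. The block of basement membrane genes at the upper left is mostly red, with Col4a1 and Col4a2 highest at 0.72 but Col15a1 and Agrn at -0.15. Bgn and Emilin1 are pale against most of the others.

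Genes that build, cut and bind matrix were compared by the same rule in clusters 1 to 3, from lists outside the 41 members. Of 17 genes of collagen synthesis and crosslinking, 13 were measured, with a median of -0.10, and 1 was lower and 1 higher past 0.5. Loxl3, a lysyl oxidase that crosslinks collagen and elastin, was the lower one, from 10.7 CPM in Ctrl to 2.02 CPM in treated cells, a ratio of -1.9603 (-1.85 and -2.25 in the blocks) and below 0 in 6 of 6 runs. It was detected in 11.9% and 7.73% of the cells. P4ha2, a prolyl hydroxylase of collagen, had 0.59, and Bmp1, which cleaves procollagen ends, had -0.39. Of 16 proteases and inhibitors, 14 were measured with a median of 0.023. Adamts4, an aggrecanase, had 0.30 and Timp1, a metalloproteinase inhibitor, 0.24.

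Other basement membrane genes, of which 8 of 17 were measured, had a median of 0.25 (-0.032 in block 1 and 1.22 in block 2). Past 0.5, 2 were higher and 0 lower. These were Col4a5 (1.52), a further collagen IV chain, and the integrin ligand nephronectin, Npnt (0.62). Npnt had 0.028 in block 1 and 1.27 in block 2 and was below 0 in 4 of 6 runs. Lama1 had -0.22. Other collagens, with 7 of 12 measured, had a median of 0.21 (0.31 in block 1 and -0.37 in block 2). They were led by Col13a1 (1.89, with 0.31 and 4.14 in the blocks), Col2a1 (-0.92) and Col11a1 (0.88), each under 7 CPM. Of 10 matrix receptors other than integrins, 8 were measured with a median of 0.021. Sdc4, a syndecan that acts in cell adhesion to fibronectin, went from 4.64 CPM in Ctrl to 11.1 CPM in treated cells, a ratio of 1.10 above 0 in 6 of 6 runs, with a read in 18.9% and 31.96% of cells. Sdc2 had 1.22 and Sdc3 -0.46. Among markers of other cell types, 8 of 12 hematopoietic genes were measured with a median of 0.039, 2 of 9 epithelial genes with 0.32, and 0 of 4 germ cell genes.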

How the data were processed

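Single cells were sorted as CD31+kit+CD45- and sequenced by Smart-seq2, per the labels' protocols. The deposited values are raw counts of reads per gene and cell, made by the authors with GSNAP 2015-09-29 and HTSeq 0.6.0 on mm10, per the submitters' processing notes. Which annotation release and settings were used for counting, and whether cells were filtered, was not given in the sources used here. Smart-seq2 carries no strand and no molecular identifiers, so intervals cover counting error only.

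Counts were summed over the cells of a treatment or cluster and scaled to CPM. Ratios are log2 of CPM with 1 added. Genes detected in 5% or more of the cells of clusters 1 to 3 were compared between treatments, and called where the ratio reached 0.5 with the same sign in both blocks of library numbers (below 20000 and above 22000). Clusters were compared at a ratio of 1. Intervals for CPM are exact Poisson and those for shares exact binomial (Clopper-Pearson), at 95%. The ratio was also computed on simulated data with 200 changed genes, but no outcome is given here, so that run is no check on the results. Of the gene IDs, 45143 had a symbol in GENCODE M21 and 935 had none. Each column matched 1 cell, 0 columns were left over and 0 pairs were identical. Doublets were not called. Python 3.11.15, numpy 2.4.6, pandas 2.3.3 and scipy 1.17.1 were used.

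All 41 members are reported. From each other matrix list, up to 3 measured genes with the largest ratio and the same sign in both blocks were named (1 such gene is not reported here), and other genes named as markers were picked after their values were seen. The members and lists were chosen with earlier results of these data known. Alternatives were another pseudocount, TMM and median-of-ratios scaling, thinning to 120000 reads, means over cells, single clusters, blocks, sexes and other thresholds, and leaving out runs or cells.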

Additional observations from a re-analysis of the deposited data

Results flagged for a closer look

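A total of 7 of the measured members had ratios of treated over Ctrl past 0.25 in both blocks of library numbers with opposite signs, and the difference between the blocks was not tested. The same count over all measured genes is not given, so 7 cannot be called many or few.
Lamb1, the laminin beta chain of most embryonic vessels, had 0.26 in block 1 and -0.49 in block 2. Col1a2, a collagen I chain, had 1.22 and -0.58, and the matrix-rich treated cell is in block 1. The microfibril gene Fbn1 had -0.59 and 0.47. Fn1, fibronectin, had -0.38 and 0.47, and Mmrn2, multimerin 2, had -0.30 and 0.34. Thbs1, thrombospondin 1, had -0.63 and 1.86, and Vcan, versican, had -1.06 and 1.66. Among Y-positive cells of block 1, Vcan was at 1.80 and Fn1 at -0.45, and among Xist-positive cells of block 2 they were at 1.13 and 0.97. A single Ctrl cell held 76.9% of the Ctrl reads of Vcan. For Fn1, Fbn1 and Mmrn2 the ratios over both blocks together, near 0, stand between block values of opposite sign. Treated cells of block 1 were Y-positive or of neither sex call and those of block 2 were Xist-positive or neither, so the block and the sex of treated cells cannot be told apart. Groups of over 10 cells were not searched for single outlying values.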

How the results depend on the processing

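The median log2 ratio of the basement membrane genes (-0.090, SD over runs 0.13) moved by less than that SD under 25 of 26 alternatives. Its values ran from -0.24 to 0.021, and the exception was -0.24 in cluster 2 only. The median of the other matrix genes (-0.025, SD over runs 0.41) stayed within its SD under 26 of 26, from -0.31 to 0.24. The counts of 21 mesenchymal and 12 endothelial members stayed within 1.5 times under 10 of 10 alternatives (17 to 23 and 9 to 16). The small counts of members lower (2) and higher (5) in treated cells depended on many choices. The lower count was 0 with a pseudocount of 10 CPM, 1 with a difference of mean log2 values, over all 7 clusters, at a ratio of 1 or with a read in 20% of cells, 4 in block 2, in cluster 3, among Xist-positive cells of block 2, without run 3, without run 5 or without cells over 100 CPM of mesenchymal markers other than Mest, 5 in cluster 2 or at a ratio of 0.25, 8 in block 1 and 9 among Y-positive cells of block 1. The higher count was 0 with a difference of mean log2 values, 1 in cluster 1, 2 over all 7 clusters, 3 after thinning, without run 5 or with a read in 20% of cells, and 9 among Xist-positive cells of block 2. The causes were not tested.

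Called genes changed sign as follows. In cluster 3 Lamb2 was at 2.69, Col5a1 at -0.090 and Col6a2 at 0.12. Over all 7 clusters Col1a1 was at -0.46, Col3a1 at -0.29, Postn at -0.51 and Lum at -0.34. Among Y-positive cells of block 1 Col3a1 was at -0.27 and Postn at -0.52, and Postn was at -1.01 in cluster 1. TMM moved all ratios by -0.0071 and median-of-ratios scaling by 0.012. Leaving out cells by mesenchymal markers other than Mest (24 Ctrl and 20 treated) or by low endothelial markers (1 and 2), leaving out the matrix-rich cell, other exon lengths and clusters 4 and 5 apart were chosen after seeing the data. The planned limit on all mesenchymal markers, Mest included, left 1 Ctrl and 4 treated cells and gave no value. No paired analysis was possible because each treatment is 1 sample and the shared numbers only count cells. With 1 sample a treatment, spread between embryos is unknown, and genes detected in few cells rest on single cells.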
